A study of Mus musculus with 2 samples.

Results

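The Hox genes of the mouse genome encode homeodomain transcription factors that give cells their position along the head-to-tail axis. They were taken as the genes with a protein-coding transcript in the deposited transcript tables whose symbol is Hox, a cluster letter from a to d and a number. By this rule 39 genes were found among 21901 genes with a protein-coding transcript and 55536 annotated genes in all. They fall into 4 clusters. Cluster A held 11 genes at chr6:52155590-52260880, cluster B held 10 at chr11:96194316-96368256, cluster C held 9 at chr15:102921103-103036852 and cluster D held 9 at chr2:74668310-74765142 (mm10, GENCODE M21). The genes of cluster A lie on the minus strand and those of clusters B, C and D on the plus strand.

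The data are total RNA sequencing libraries from heart tissue of female B6CASTF1/J mice, an F1 hybrid strain, taken at 4 days of age (2 libraries). No treatment is given, both libraries belong to 1 group, and the design holds no contrast between conditions. The labels number the biological replicates separately but give them the same donor, so the spread between the libraries may be that of animals or technical. Below, the hearts stand for these 2 libraries, whether or not they come from different animals. A heart is a mixture of cell types, and in such bulk RNA fewer cells of a type and less RNA per cell cannot be told apart. Replicate 1 held 36175363 expected counts and replicate 2 held 32509660, where an expected count is an estimated number of reads or fragments assigned to a gene and need not be whole. Levels are given as TPM, transcript abundance scaled to the library and corrected for gene length. All 5 cardiomyocyte markers were above a TPM of 1 in both libraries (summed TPM 18958 in replicate 1 and 18405 in replicate 2), while none of 5 lung markers was (0.890 and 1.26), nor any of 5 liver markers (2.38 and 2.18). The libraries stood apart in erythroid markers, whose summed TPM was 17278 in replicate 1 and 221 in replicate 2.

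Hox genes sit in their clusters in the order in which they act along the body axis. Genes with low numbers, at the 3' end of a cluster, are activated early and act toward the head, and genes with high numbers, at the 5' end, are activated late and act toward the tail. Genes of the same number in different clusters are paralogs, copies of a common ancestral gene. In the embryo, Hoxb1 and Hoxa3 mark cardiac progenitors that go on to build the outflow tract and part of the atria, and retinoic acid signalling controls these genes. Trimethylation of histone H3 by Polycomb complexes keeps silent Hox genes off, and Trithorax complexes such as the one built around KMT2A maintain active ones. Many HOX proteins bind DNA together with TALE homeodomain partners of the PBX and MEIS families.

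The start regions of 3 Hox genes are given as examples and do not span the whole range found at these genes. The sequences below are the 250 bases before the RefSeq start of each gene, 5' to 3' on the gene's strand (build GRCm38.p6), with every CpG dinucleotide in capitals. Hoxb4 (chr11:96318017-96318266, plus strand) and Hoxd8 (chr2:74704365-74704614, plus strand) were among the Hox genes with the most counts. Hoxa13 (chr6:52260881-52261130, minus strand), the most 5' gene of cluster A, had none.
Hoxb4: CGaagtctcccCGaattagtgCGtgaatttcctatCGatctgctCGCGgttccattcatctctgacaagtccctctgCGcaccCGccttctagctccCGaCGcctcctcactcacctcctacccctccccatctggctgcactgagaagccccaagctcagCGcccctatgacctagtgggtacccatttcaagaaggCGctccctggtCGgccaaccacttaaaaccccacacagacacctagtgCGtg
Hoxd8: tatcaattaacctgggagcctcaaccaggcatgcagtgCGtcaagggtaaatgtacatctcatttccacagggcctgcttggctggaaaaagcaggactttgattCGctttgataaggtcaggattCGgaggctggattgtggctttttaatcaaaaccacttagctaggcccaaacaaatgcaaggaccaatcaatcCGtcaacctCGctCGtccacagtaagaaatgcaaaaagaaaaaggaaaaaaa
Hoxa13: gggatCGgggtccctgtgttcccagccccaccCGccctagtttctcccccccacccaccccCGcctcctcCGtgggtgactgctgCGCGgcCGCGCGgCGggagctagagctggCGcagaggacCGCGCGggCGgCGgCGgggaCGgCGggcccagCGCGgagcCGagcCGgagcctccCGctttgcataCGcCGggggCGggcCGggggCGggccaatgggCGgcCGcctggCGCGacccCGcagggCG
The Hoxa13 window held 35 CpG dinucleotides, that of Hoxb4 held 14 and that of Hoxd8 held 6. RefSeq start regions were matched for 22 of the 39 genes (24 windows). Their median was 12.5 CpG (range 2 to 35), against 6 over all 32851 windows of the same length in the table. The windows of the 8 matched genes with more than 6 counts in both libraries together had a median of 10 CpG, and those of the 7 matched genes at 0 (9 windows) had 13. Of these 7, Hoxa13, Hoxb1 and Hoxd11 had counts in the second quantification described below. CCAAT, searched on both strands, was present in 14 of the 24 windows and in 33.8% of all windows. TGATNNAT, a form of the joint HOX and PBX site, was in 4 of 24 and in 7.68% of all windows. AGGTCA, a half-site of retinoic acid receptors, was in 6 of 24 and in 14.0% of all windows, and TATAAA was in 4 of 24 and in 12.4%. A match describes the letters only.

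Hox transcripts were present at low levels in both hearts and came mostly from the genes numbered 2 to 5 of clusters A and B and from Hoxd8 and Hoxd4 of cluster D. The 39 genes together received 305 counts in replicate 1 (exact 95% Poisson interval 272 to 341) and 279 in replicate 2 (247 to 314), or 8.43 and 8.58 CPM, counts scaled to library size without regard to length. Their summed TPM was 5.52 and 5.61 (mean 5.56 ± 0.0636, SD, n = 2), and the intervals of the counts overlapped. None of the 39 reached a TPM of 1 in both hearts, whereas 54.5% of genes with a protein-coding transcript did. The median Hox gene had a mean TPM of 0.0150, and the median of all genes with a protein-coding transcript was 2.31. More than 3 counts in both libraries were found for 12 of the 39, against 66.3% of genes with a protein-coding transcript. At 0 counts in both libraries were 15 of the 39, against 22.2%. In another deposited quantification of the same reads, given below as the second, 10 of the 39 had under 0.5 counts in both, against 17.3%. A limit of 3 counts was set for a count of 0, which is tighter than its exact 95% Poisson interval, whose upper end is 3.69. For those 15 genes, 3 counts come to a TPM of 0.0439 to 0.115 in replicate 1 and 0.0502 to 0.131 in replicate 2. Both the Poisson intervals and this limit speak of counting error alone, because reads carry no molecular identifiers and may repeat a molecule. The other 24 genes split into 16 with a count in both libraries, 7 with a count in replicate 1 only and 1 in replicate 2 only.

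**Figure D1:**
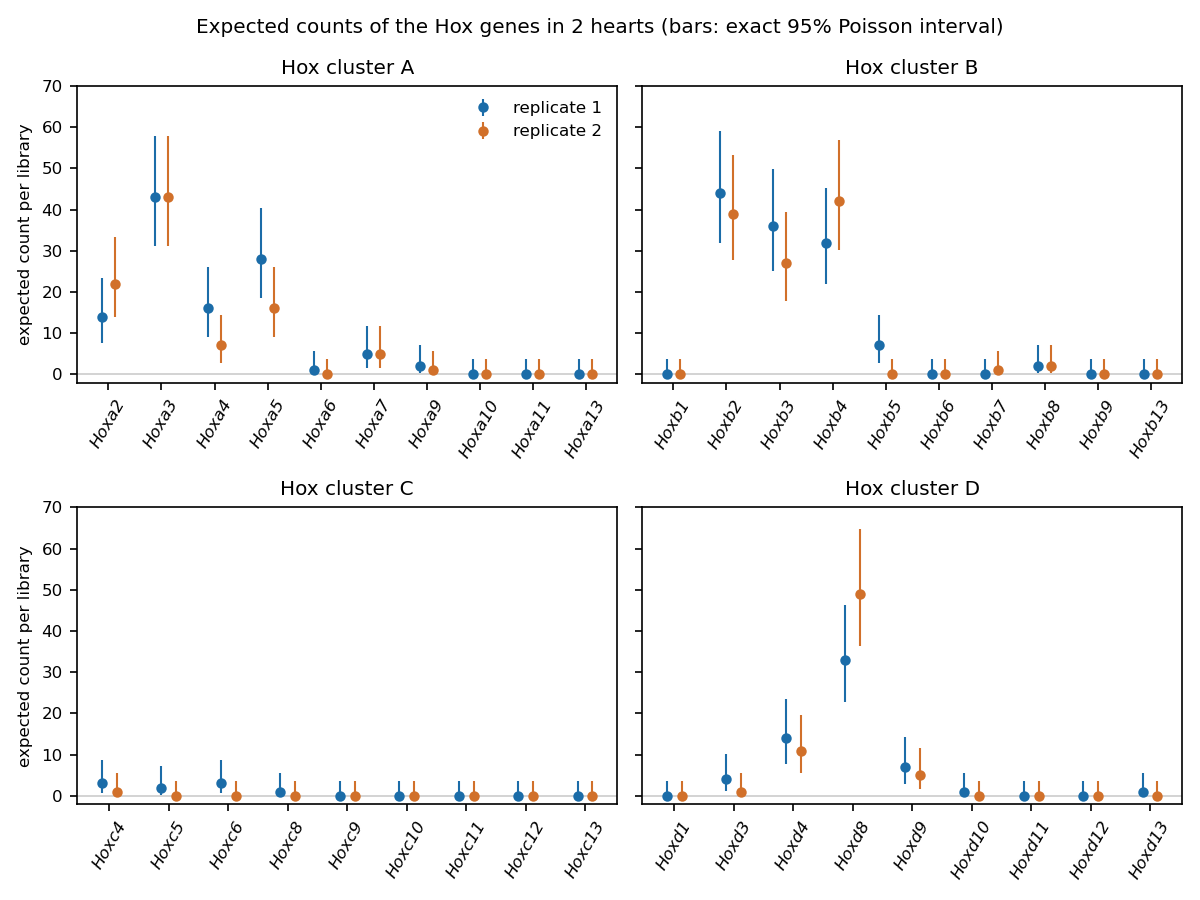
Expected count (linear axis) of 38 of the Hox genes in replicate 1 (blue) and replicate 2 (orange), by cluster and in order of paralog number, with bars for the exact 95% Poisson interval. Hoxb2, Hoxa3, Hoxd8, Hoxb4, Hoxb3 and Hoxa5 hold most of the counts, and the 5' genes of every cluster lie at or near 0.

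The 6 Hox genes with the most counts held 432 counts in the 2 libraries, 74.0% of the Hox total. Hoxb2, which acts in the hindbrain and its neural crest, was the highest by mean TPM, with 44 counts (TPM 0.97) in replicate 1 and 39 (0.93) in replicate 2. Its mean TPM was 0.95 ± 0.0283 (SD, n = 2), and 44.4% of genes with a protein-coding transcript lay below it. Hoxa3, needed for the thymus, the parathyroids and the great vessels of the neck, had 43 counts in each library (TPM 0.63 and 0.74, mean 0.685 ± 0.0778). Hoxd8, a central gene of cluster D, had 33 and 49 counts (TPM 0.53 and 0.79, mean 0.660 ± 0.184). Hoxb4, known from blood stem cells, had 32 and 42 counts (TPM 0.46 and 0.69, mean 0.575 ± 0.163). Hoxb3 had 36 and 27 counts (TPM 0.60 and 0.46, mean 0.530 ± 0.0990). Hoxa5, best known for its part in lung development, had 28 and 16 counts (TPM 0.56 and 0.37, mean 0.465 ± 0.134). Of the 38 pairs of neighbours in the order of mean TPM, Hoxb2 and Hoxa3 were the only pair whose library values did not overlap, and the Poisson intervals of their counts did overlap. By mean CPM, Hoxa3 at 1.26 stood above Hoxb2 at 1.21. The order, with the first place of Hoxb2, is therefore not resolved gene by gene.

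A next tier ran from Hoxa2 to Hoxd9. Hoxa2, the selector gene of the neural crest of the hyoid arch, had 14 and 22 counts (TPM 0.30 and 0.53). Hoxa4 had 16 and 7 counts (TPM 0.38 and 0.19), and its paralog Hoxd4, which patterns the upper neck vertebrae, had 14 and 11 (TPM 0.20 and 0.26). Hoxd9 had 7 and 5 counts (TPM 0.12 and 0.10). Hoxa7 had 5 counts in each library but a TPM of 0.09 and 0.21. In the first quantification all 5 counts of replicate 1 were assigned to a nonsense-mediated decay transcript of 2031 nt and those of replicate 2 to coding transcripts, in part to ones of 807 and 643 nt, so the length used for its TPM differed. The second quantification gave that decay transcript 0 counts and put all 6 counts of replicate 1 on a coding transcript of 2009 nt. Hoxb5 had 7 counts in replicate 1 and 0 in replicate 2.

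The remaining genes had at most 4 counts in a library. Hoxd3 had 4 and 1, Hoxc4 had 3 and 1, Hoxa9 had 2 and 1, and Hoxb8 had 2 in each. In replicate 1 only, Hoxc6 had 3 counts, Hoxc5 had 2, and Hoxa6, Hoxc8, Hoxd10 and Hoxd13 had 1 each. Hoxb7 had 1 count, in replicate 2. The 15 genes at 0 in both libraries were Hoxa10, Hoxa11 and Hoxa13 of cluster A, Hoxb1, Hoxb6, Hoxb9 and Hoxb13 of cluster B, Hoxc9 to Hoxc13 (5 genes) of cluster C, and Hoxd1, Hoxd11 and Hoxd12 of cluster D. They include the genes of the limb skeleton (Hoxa11, Hoxa13, Hoxd11), of the uterus (Hoxa10), of the prostate (Hoxb13) and of hair (Hoxc13).

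By paralog number, nearly all counts fell on the anterior and central genes. The 8 anterior genes (numbers 1 to 3) held 147 and 139 counts, with a summed TPM of 2.65 and 2.81 (mean 2.73 ± 0.113, SD, n = 2). The 15 central genes (numbers 4 to 8) held 147 and 134 counts, with a summed TPM of 2.66 and 2.59 (2.62 ± 0.0495). The 16 posterior genes (numbers 9 to 13) held 11 and 6 counts and a summed TPM of 0.21 in each library, and 12 of them were at 0 in both. Anterior and central genes thus took 49.0% and 48.1% of all Hox counts, and posterior genes 2.91%. In the second quantification the shares were 47.1%, 44.2% and 8.73%, with 37.8 and 24.9 posterior counts, and 8 posterior genes were at 0 in both. In the 12 genes numbered 10 to 13, replicate 1 held 2 counts, from Hoxd10 and Hoxd13, and replicate 2 held none. By paralog group, group 2 had 58 and 61 counts, group 3 had 83 and 71, and group 4 had 65 and 61. Group 5 had 37 and 16, group 8 had 36 and 51, and every other group had at most 9 in a library. In the first paralog group, Hoxb1 and Hoxd1 were at 0 in both libraries.

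**Figure D2:**
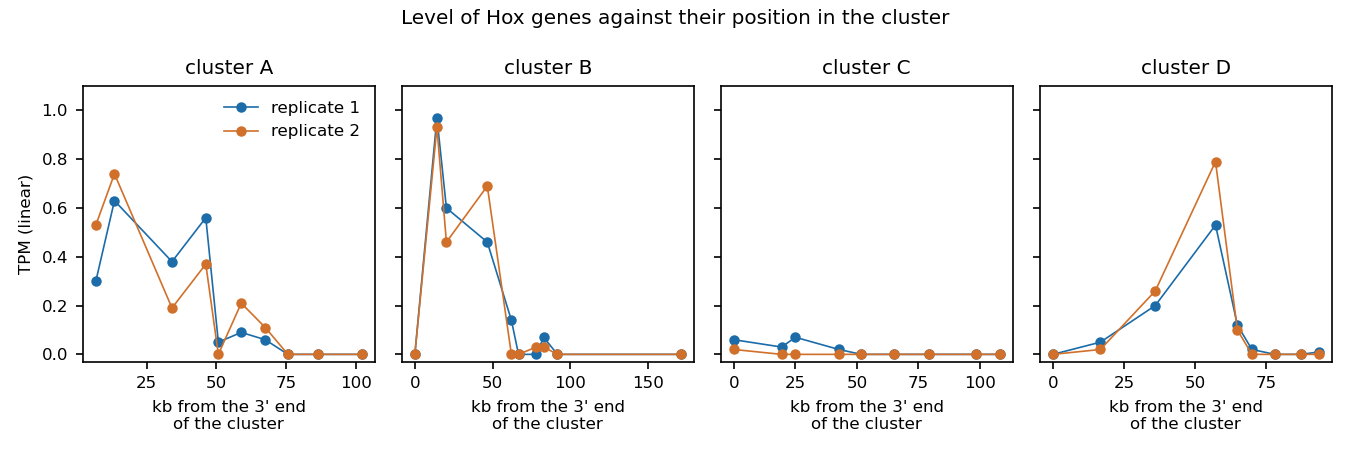
TPM (linear axis) of the same 38 genes against the distance in kb from the 3' end of the cluster to that of the gene, in replicate 1 (blue) and replicate 2 (orange). Levels peak at Hoxa3, Hoxb2 and Hoxd8, drop toward the 5' end on the right, and stay below 0.1 throughout cluster C.

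The clusters differed in level and in where their highest gene lay. Cluster A held 115 and 101 counts, with a summed TPM of 2.17 and 2.28 (mean 2.23 ± 0.0778, SD, n = 2), and was highest at Hoxa3. Cluster B held 121 and 111 counts, with a summed TPM of 2.24 and 2.14 (2.19 ± 0.0707), and was highest at Hoxb2. Their library values overlapped, and they took 37.0% and 39.7% of all Hox counts. Cluster D held 60 and 66 counts (TPM 0.93 and 1.17, mean 1.05 ± 0.170), or 21.6% of Hox counts, below clusters A and B in both libraries. Its peak lay further 5', at Hoxd8, while its 3' genes Hoxd1 and Hoxd3 together had 4 and 1 counts. Cluster C was lowest, with 9 and 1 counts (TPM 0.18 and 0.02, mean 0.10 ± 0.113), 1.71% of Hox counts, or 5.32% in the second quantification. In the first quantification all of its counts came from Hoxc4, Hoxc5, Hoxc6 and Hoxc8. In the second, Hoxc9 held 14.6 of its 30.7 counts in replicate 1 and 5.48 of 7.51 in replicate 2.

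Between the hearts, most Hox genes had too few counts for a ratio to be read. To be called different, a gene had to have a ratio of 2-fold or more after TMM scaling, with an exact 95% interval excluding equality, a mean TPM no lower than 1 and 20 or more counts in all. Over all genes 0.860% of 13598 tested were called, and no Hox gene reached the TPM minimum. With the count minimum alone, 2.11% of 16958 genes were called and 0 of the 9 Hox genes tested. These rules compare 2 libraries, not conditions, and the intervals speak of counting error alone. No p-value is given, because each side of a ratio is 1 library and has no spread of its own. Among the 9, Hoxd8 had a log2 ratio of replicate 2 over replicate 1 of 0.67 (0.01 to 1.36), which excludes equality but is below 2-fold. Hoxa4 was past 2-fold, at -1.03 (-2.61 to 0.28), with an interval that includes equality. Hoxa2 stood at 0.74 (-0.27 to 1.84), Hoxa5 at -0.68 (-1.68 to 0.24) and Hoxb4 at 0.50 (-0.20 to 1.21). Hoxa3, Hoxb2, Hoxb3 and Hoxd4 lay between -0.30 and 0.11, and the median of the 9 was -0.06. The Hox total had a log2 ratio of -0.02 (-0.26 to 0.22).

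Lower values in replicate 2 were found for cluster C and for the fifth paralog group. Of 18 sums over clusters, regions and paralog groups that had counts, these were the only ones whose interval excluded equality. Within clusters, the central genes of cluster A, with 50 and 28 counts, had a log2 ratio of -0.72 (-1.45 to -0.03). For cluster C the log2 ratio was -2.55 (-8.51 to -0.21), from 9 counts against 1. For the fifth group it was -1.08 (-2.05 to -0.22), from 37 counts against 16, made up of 28 and 16 for Hoxa5, 7 and 0 for Hoxb5 and 2 and 0 for Hoxc5. Of these genes, Hoxb5 alone had an interval that excluded equality. Hoxb5, with 7 counts against 0, was at least 2.16-fold lower in replicate 2 when its 0 is set to the limit of 3 counts in that library and its 7 counts are taken as exact. With counting error in both libraries, its log2 ratio could be as near to 0 as -0.42. These sums were chosen by their intervals among several, and the intervals are not adjusted for that number. Several marker lists of other cell types also had lower values in replicate 2. Skeletal muscle markers had a summed TPM of 31.5 and 2.87 (6 of 6 lower, Myod1 at 1 and 0 counts). Schwann and neural markers had 26.4 and 5.07 (5 of 6 lower), where Mbp, a protein of myelin, had 587 and 209 counts, and Th had 3 and 0. Epicardial and mesothelial markers had 57.8 and 40.6 (4 of 5 lower), adipocyte markers 38.6 and 31.1 (4 of 5 lower, Lep at 0 in replicate 2), and 6 of 6 erythroid markers were lower, with the sums given above. Fibroblast markers, 860 and 1015, were higher in replicate 2 for 5 of 5. The part of these cells in the Hox differences was not tested.

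The deposited files hold a pair of quantifications of the same libraries, and they differed for the lowest Hox genes. The counts above come from the gene tables, the first quantification. The second gave the Hox genes 388 counts in replicate 1 and 329 in replicate 2, with a summed TPM of 9.42 and 8.45. Among the genes with the most counts, Hoxb2 had 54.0 and 44.0 counts in the second and Hoxd8 had 34.0 and 52.0. Their TPM differed more than their counts, at 1.48 and 1.25 for Hoxb2 and 1.06 and 1.39 for Hoxd8, and Hoxb3 was at 1.11 and 0.577. Hoxb1, a gene of hindbrain and early cardiac progenitors, was at 0 in the first but had 13 and 12.2 counts in the second. Hoxc9 was at 0 in the first and had 14.6 and 5.48 in the second, and Hoxd11 had 4.10 and 7.35, all on a processed transcript with no coding sequence. Hoxb9 had 1.00 and 3.79 and Hoxa13 had 2.00 and 0 there, also from 0 in the first. Whether Hoxb1 and Hoxc9 were transcribed therefore depends on the quantification, and the cause of the difference was not tested. Cluster C and the fifth group were lower in replicate 2 in the second quantification too, at log2 ratios of -1.79 (-3.19 to -0.70) and -1.31 (-2.23 to -0.51). Both quantifications come from the same reads.

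**Figure D3:**
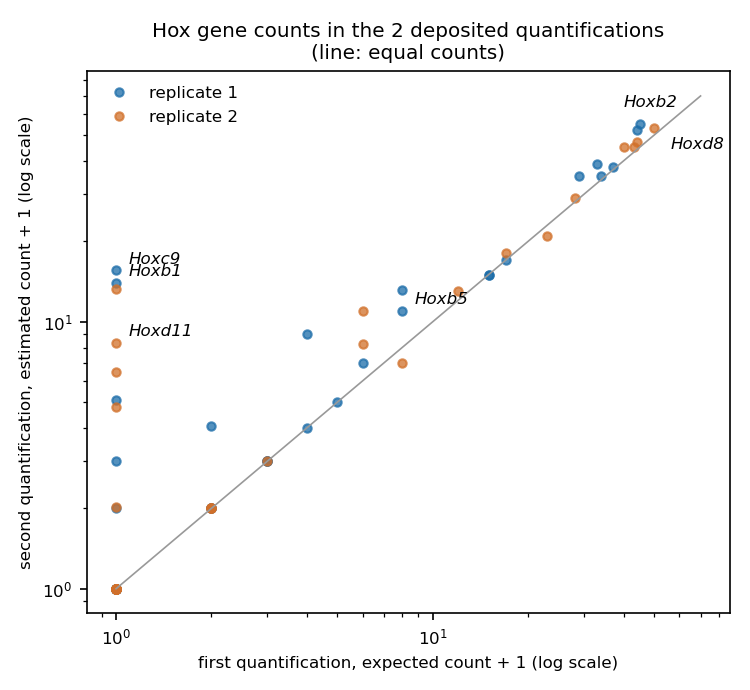
Estimated count plus 1 of the same 38 genes in the second quantification against expected count plus 1 in the first (both log axes), for replicate 1 (blue) and replicate 2 (orange); the line marks equal counts. Genes with many counts, such as Hoxb2 and Hoxd8, lie near the line, and Hoxb1, Hoxc9 and Hoxd11 lie on the left edge, at 0 in the first.

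Most Hox RNA was assigned to coding transcripts. In the second quantification, coding transcripts took 90.8% of the Hox genes' transcript TPM in replicate 1 and 88.1% in replicate 2, and in the transcript tables of the first they took 93.1% and 90.4%. Several Hox genes, among them Hoxd8, Hoxb4, Hoxa5, Hoxa2 and Hoxa4, have only coding transcripts in the annotation. Their share could only be 100%, so the total is in part set by the annotation. The share over all genes with a protein-coding transcript is not given here. Retained introns and processed transcripts held most of the rest. For Hoxb2, a retained-intron transcript was assigned 5.12 and 8.59 of its counts in the first quantification. All counts of Hoxd3, 4 and 1, were on a retained-intron transcript there. For Hoxd4, 14.00 counts in replicate 1 were on a coding transcript, while in replicate 2 the coding transcript had 6.50 and a processed transcript 4.50. For Hoxb5, all 7 counts of replicate 1 were coding in the first quantification, but the second gave 8.22 of its counts to a retained intron and 1.78 to the coding transcript. Exons of 16 of the 39 genes lie partly on exons of another annotated gene, 10 of them on the opposite strand. Those 10 include Hoxa3, Hoxb2 and Hoxb3, which were among the Hox genes with the most counts. The libraries were stranded per the labels, but whether the counting used strand is not given in the sources used here, so the counts of such genes are less certain.

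Noncoding genes of the clusters were low too. None of the 17 listed reached a TPM of 1 in both hearts, and 9 were at 0 in both. Among those 9 are the microRNA genes Mir10b, Mir196a-1, Mir196a-2, Mir196b and Mir615, which are very short. A count of 0 at such a short gene says little about its level. The shares over all noncoding genes are not given here. Hoxb3os, transcribed opposite Hoxb2 and Hoxb3 and sharing 953 and 2250 exon bases with them, had 26 and 37 counts (TPM 0.43 and 0.70). Hotairm1, a noncoding gene of cluster A known from myeloid cells, had 7 and 8 counts (TPM 0.41 and 1.21). Hoxaas3 had 6 and 3 counts, Halr1 had 3 and 5, and Hoxaas2 had 3 and 1. Hotair of cluster C, Hottip at the 5' end of cluster A, Hoxa11os and Haglr were at 0 in both libraries. In the span of cluster C, the 7 other annotated genes had 0 counts in both libraries. This was so for 9 of 10 in cluster D, 12 of 20 in cluster A and 5 of 9 in cluster B.

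The clusters also carry microRNA genes, whose mature forms are short RNAs that pair with target transcripts through the seed, bases 2 to 8. Their sequences are given because paralogous copies in different clusters share their seeds, in capitals here (RefSeq, GRCm38.p6).
miR-10a-5p (cluster B): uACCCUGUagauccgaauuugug
miR-10b-5p (cluster D): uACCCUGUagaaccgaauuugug
miR-196a-5p (clusters B and C): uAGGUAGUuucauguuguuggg
miR-196b-5p (cluster A): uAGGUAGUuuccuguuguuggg
Counted from the 5' end, the miR-10 forms differ by U12A (miR-10a base first) and the miR-196 forms by A12C (miR-196a base first), both outside the seed. Mir10a had 1 count in replicate 1, and Mir10b, Mir196a-1, Mir196a-2, Mir196b and Mir615 had none in either library. Gene counts from total RNA libraries do not measure the mature forms.

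Most partners and regulators of Hox genes were at higher levels than any Hox gene. Of 9 TALE partner genes, 8 were at a TPM of 1 or more in both hearts, with a list median of 12.6. For this and the next 2 lists, the share over genes with a protein-coding transcript was 54.5%, with a median of 2.31. Meis1 had a mean TPM of 19.8 ± 2.00 (SD, n = 2), Pbx2 16.2 ± 1.30 and Meis2 15.9 ± 0.445, while Pbx4 was at 0.405 ± 0.148. Of 17 Polycomb genes, 16 were at 1 or more (median 15.6). Ezh2, the H3K27 methyltransferase, was at 37.2 ± 6.54, Phc2 at 31.6 ± 1.46, Bmi1 at 28.5 ± 0.332 and Suz12 at 27.0 ± 1.25, and Cbx7 at 0.815 ± 0.0919 was the exception. Of 14 activators of Hox transcription, 10 were at 1 or more (median 8.23). They included Psip1 (32.1 ± 2.31) and Ash2l (24.3 ± 3.29), cofactors of KMT2A-type complexes, Kmt2a itself (10.6 ± 0.636) and the retinoic acid receptor genes Rara (16.4 ± 1.5), Rarb (8.32 ± 1.22) and Rarg (6.68 ± 1.38). The Cdx genes, activators of central and posterior Hox genes in the embryo, were near 0, with 1 count of Cdx1 in each library and none of Cdx2 or Cdx4. Egr2, which drives Hoxa2 and Hoxb2 in the hindbrain, was at 0.470 ± 0.255. The related homeobox genes Evx1, Evx2, Gsx1, Gsx2 and Pdx1 had 0 counts in both libraries.

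Genes that flank the clusters were taken from a list that leaves out Evx1 and Evx2. These lie nearer to clusters A and D than the listed genes do and had 0 counts in both libraries. Of the 9 listed, 6 were at a TPM of 1 or more in both hearts (median 6.41), against 54.5% of genes with a protein-coding transcript. Beside cluster D, Mtx2, a mitochondrial import gene, was at 61.1 ± 2.79 (SD, n = 2) and Lnpk at 11.0 ± 2.56. Near cluster A, Hibadh, an enzyme of valine breakdown, was at 57.7 ± 0.332 and Skap2 at 4.77 ± 0.820. Near cluster C, Calcoco1 was at 31.9 ± 3.97 and Smug1 at 6.41 ± 0.205. The flanking genes of cluster B were silent or nearly so, with Skap1 at 1 and 3 counts and Calcoco2 and Ttll6 at 0. Cluster B was thus at a summed TPM like that of cluster A beside low neighbours, and cluster C was near 0 beside transcribed ones.

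**Figure D4:**
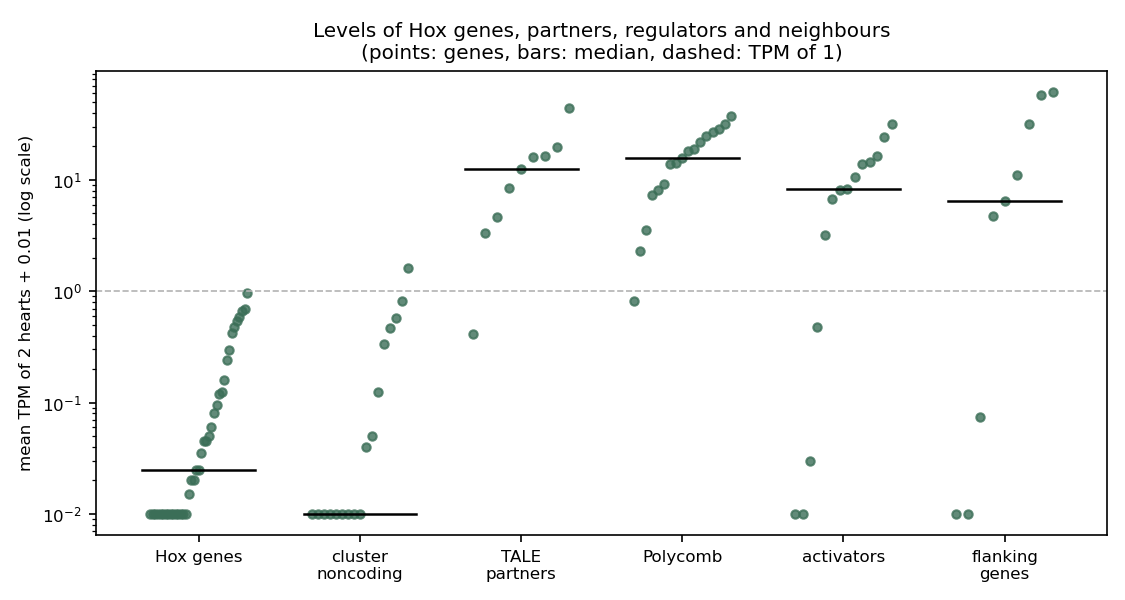
Mean TPM of both hearts plus 0.01 (log axis) of the 39 Hox genes, 17 noncoding genes of the clusters, 9 TALE partners, 17 Polycomb genes, 14 activators and 9 flanking genes, with 1 point per gene, bars for the medians and a dashed line at a TPM of 1. Every Hox gene lies below the line and most partners and regulators lie above it; the 1 noncoding gene above the line is Mir10a, whose 1 count weighs much on a very short gene.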

How the data were processed

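For each of the 2 libraries the authors deposited a gene table and transcript tables quantified on mm10 against annotation M21, as the notes with the files state. They hold expected counts and TPM that the authors estimated from alignments to the transcriptome (first quantification) or from the reads with an index (second), per the file headers and notes, and deposited for each library separately. The transcript tables of the first quantification also hold a percent of each gene's TPM per transcript, as deposited by the authors, which was not used. The first quantification has the column layout of RSEM and the second that of kallisto; the sources used here name neither program nor version. Transcripts of the second were added up for each gene.

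Expected counts were rounded for ratios and intervals. Ratios used TMM factors (edgeR 4.0.16, R 4.3.3), a prior count of 0.5 and exact Clopper-Pearson intervals (scipy 1.17.1). The rule was tested on simulated counts with the count minimum but no TPM minimum. Those counts varied by counting error alone, so the simulation cannot show how the rule handles other variation between libraries. DESeq2 1.42.0 size factors, spike-in and total scaling were alternatives. Hox genes were named; any member of the other lists could be, the highest by mean TPM and those at 0 first, and some were named for their known role. The members and lists were chosen with earlier results of these data known. Spike-ins (0.582% and 0.547% of counts) were left out of tests, as were rows naming no gene (0% and 0.0000185%). Depth and the limit of 3 counts (0.0829 and 0.0923 CPM) set what can be detected. The values of 1 Hox gene and of some listed genes are not reported here. All 39 Hox counts were whole in both libraries. RefSeq start regions and mature microRNAs were matched by symbol.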

Additional observations from a re-analysis of the deposited data

How the results depend on the processing

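No paired analysis was possible because both libraries belong to 1 group. At a TPM of 1, the number of Hox genes reaching the level in both hearts was 2 instead of 0 in the second quantification (Hoxb2 and Hoxd8), 2 in its coding transcripts alone and 2 by CPM; it was 3 at a TPM of 0.5 (Hoxa3, Hoxb2 and Hoxd8) and 11 at 0.1, and stayed 0 with posterior mean TPM, at a TPM of 2 and in each library alone. Summed levels in the second quantification, in its coding transcripts alone and by posterior mean TPM were 3.12, 2.80 and 3.47 for cluster A, 3.51, 3.13 and 2.91 for B, 0.416, 0.401 and 0.595 for C, and 1.90, 1.68 and 1.72 for D. They were 4.11, 3.65 and 3.57 for anterior, 4.01, 3.81 and 3.92 for central, and 0.820, 0.538 and 1.2 for posterior genes. In CPM the sums were 3.14 for cluster A, 3.38 for B, 1.84 for D, 4.17 for anterior, 4.09 for central and 0.244 for posterior genes. Leaving out each library gave 2.17 to 2.28 for cluster A, 2.14 to 2.24 for B, 0.0200 to 0.180 for C, 0.930 to 1.17 for D, 2.65 to 2.81 for anterior, 2.59 to 2.66 for central and 0.210 for posterior genes. Without a filter 584 of all genes were called between the hearts, among them 1 Hox gene, Hoxb5, from 7 counts against 0. The shares of all genes without a filter, or at a TPM of 0.5 and 0.1, are not given here. The Hox numbers at those settings are therefore counts only. Over all genes 117 were called by the main rule, 357 with the count minimum alone, 36 at a mean TPM of 5 and 311 at 1.5-fold. The log2 ratio of Hoxb2 became 0.07 with spike-in scaling and that of Hoxa3 became -0.05 in the second quantification, both near 0. Coding transcripts held 91.7% of Hox TPM in the first quantification against 89.5% in the second. In the second, 1 noncoding gene, Halr1, reached a TPM of 1, from only 4.00 and 3.00 counts. The causes were not tested. Depth limits all of this, since 5 Hox genes rest on 1 count in 1 library.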
